A study of Mus musculus with 20 samples.

Results

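The 8 genes described here, Dnmt1, Dnmt3a, Dnmt3b, Uhrf1, Tet1, Tet2, Tet3 and Tdg, write, keep or remove methyl groups on cytosine. They were taken by symbol from the expression tables, which list 24315 genes, and all 8 were found in the tables of both cell types. The enzymes were measured by polyA RNA sequencing in 2 sorted bone marrow populations of C57BL/6 mice. LSK cells (lineage-negative, Sca1+, Kit+) hold the hematopoietic stem and multipotent progenitor cells, and MEP are megakaryocyte-erythroid progenitors. The study's text describes its wild type controls (WT, 3 mice) as mice with untargeted genes. The other mice carried a deletion of Dnmt3a (Dnmt3a-/-, 3 mice), a deletion of Bcor exons 8 to 10 (Bcor-/-, 2 libraries per cell type), or both deletions (Bcor-/-Dnmt3a-/-, 2 mice). In all mutants the deletion was made by Mx1-Cre, a recombinase that is switched on in blood-forming and other interferon-responsive cells by pIpC. The labels of the mutant libraries hold the word Cre and those of WT do not. The WT labels share a prefix with those of Dnmt3a-/-, and whether the WT mice held an uncut Dnmt3a allele is not given. If WT lacked Cre, an effect of Cre cannot be told apart from that of a deletion. Bcor encodes a corepressor of a Polycomb complex. One Bcor-/- library of each cell type is labelled with 2 mice and was counted as 1 sample. Each mouse or pool gave 1 LSK and 1 MEP library, so that 10 libraries per cell type entered the comparisons. The labels give no age and no disease stage; the study's text calls the double knockout mice of its RNA-seq comparison leukemic.

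DNA methylation in mammals sits mostly on CpG dinucleotides. DNMT3A and DNMT3B are the de novo methyltransferases, which place methyl groups on sites that had none, and DNMT1 copies the pattern onto the new strand after replication, guided there by UHRF1, which binds hemimethylated DNA. TET1, TET2 and TET3 oxidize 5-methylcytosine, and the glycosylase TDG cuts out the most oxidized forms, which base excision repair then replaces with cytosine. DNMT3A and TET2 are among the genes most often mutated in myeloid malignancies, and loss of DNMT3A in hematopoietic stem cells favours self-renewal over differentiation. The comparisons asked whether the paralogs of Dnmt3a and the opposing enzymes changed in level when Dnmt3a, Bcor or both were deleted, and whether stem and progenitor cells and megakaryocyte-erythroid progenitors differed in this.

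In LSK cells with both deletions, Dnmt3b, Tet1 and Dnmt3a were lower past the thresholds given below, 3 of 7 tested genes. Of all tested genes, 28.3% passed in that comparison, and these LSK libraries held few LSK transcripts. The effect of the double deletion differed between the cell types for Dnmt3b and Tet1. They were 2 of the 8 genes, where 29.4% of all tested genes differed. Their promoters are therefore shown, as the 250 bases before the annotated start, 5′ to 3′ on the strand of the gene, with every CpG in capitals because CpG is the site on which all 8 enzymes act. The sequences are from RefSeq on GRCm38.p6, a later build than the mm9 named in the processing notes, and all 8 genes matched an entry. The Dnmt3b promoter lies at chr2:153649199-153649448 on the + strand and the Tet1 promoter at chr10:62887325-62887574 on the - strand.
Dnmt3b: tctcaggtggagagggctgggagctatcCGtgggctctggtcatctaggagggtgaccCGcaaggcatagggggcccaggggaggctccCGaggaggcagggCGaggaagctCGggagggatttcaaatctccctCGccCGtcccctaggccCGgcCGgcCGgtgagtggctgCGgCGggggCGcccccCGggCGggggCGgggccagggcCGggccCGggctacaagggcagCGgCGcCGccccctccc
Tet1: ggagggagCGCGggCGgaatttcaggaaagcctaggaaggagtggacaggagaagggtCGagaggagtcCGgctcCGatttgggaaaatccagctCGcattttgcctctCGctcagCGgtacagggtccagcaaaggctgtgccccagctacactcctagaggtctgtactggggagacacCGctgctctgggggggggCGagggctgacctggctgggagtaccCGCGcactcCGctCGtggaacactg
The Dnmt3b stretch holds 21 CpG and is 75.2% G or C, and the Tet1 stretch holds 15 CpG and is 62.8% G or C. Of the 32851 promoters in the table, 83.7% hold fewer CpG than that of Dnmt3b and 72.7% fewer than that of Tet1. Both are thus rich in CpG against a median of 6. Neither stretch holds the erythroid GATA word GATAA on either strand, which 22.6% of all promoters hold. Neither holds 1 of the 4 E2F words TTTCCCGC, TTTCGCGC, TTTGCCGC and TTTGGCGC on either strand, which 1.86% of all promoters hold. An E2F word was found 1 time in the third listed Dnmt1 promoter and 1 time in the second listed Uhrf1 promoter, and in no other listed promoter of the 8 genes. These are matches of letters, and no methylation or factor binding was measured.

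The libraries of each cell type had similar depth and, outside 1 genotype, similar profiles. The tables hold FPKM, fragment numbers divided by transcript length and by library size, without counts, and the step that 1 read is worth placed the depth of the LSK libraries between 0.79 and 1.32 times and that of the MEP libraries between 1 and 1.6 times that of WT replicate 1. Libraries of 1 genotype correlated across genes at r of at least 0.973 in LSK and 0.971 in MEP, except the Bcor-/-Dnmt3a-/- pairs, which reached 0.849 in LSK and 0.815 in MEP. These libraries also went against their sort. The summed FPKM of 9 LSK markers was 182 and 374 in the LSK libraries labelled Bcor-/-Dnmt3a-/-, against 1119 to 1308 in WT and 853 and 577 in Bcor-/-. Cd34, a surface marker of progenitors, stood at 5.87 and 37.3 FPKM there, and at 548 to 650 FPKM in WT. The sum of 11 genes of maturing erythroid cells was 6293 and 23960 against 74.7 to 169. Of 7 MEP markers, 6 were called higher and 1 lower in these LSK libraries, with a sum of 455 and 406 FPKM against 253.5 to 294.5 in WT LSK and 910.0 to 1091 in WT MEP. Of 6 megakaryocyte markers, 4 were called lower, with a sum of 14.3 and 49.5 against 97.4 to 117. B cell markers and T and NK cell markers moved as well. The B cell sum was 3419 and 1122 FPKM in LSK against 42.4 to 99.99 in WT, and of 6 T and NK cell markers 5 were called higher and 1 lower. The macrophage sum was 1277 and 45.2 against 32.3 to 225, with replicate 2 within the WT range and 0 of 5 markers called. The LSK result in these mice thus compares a population with few LSK transcripts with WT LSK cells, and the part of this difference in the values below was not tested. In bulk RNA, fewer cells that express a gene and less RNA of it per cell cannot be told apart. Where both replicates of the double knockout are used, each value without 1 of them is given if it changed the call of 1 of the 8 genes.

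The targeted genes were read first. Dnmt3a stood at 19.8, 16.1 and 17.2 FPKM in the 3 WT LSK libraries, at 16.9, 14.0 and 11.3 in the Dnmt3a-/- libraries, at 13.9 and 14.1 in those with Bcor deleted and at 10.4 and 10.9 in those with both deletions. In MEP it stood at 6.11, 5.49 and 6.64 in WT, at 5.40, 2.97 and 2.56 after Dnmt3a deletion, at 7.56 and 7.65 after Bcor deletion and at 6.85 and 3.44 after both. The Dnmt3a-/- libraries overlapped WT in LSK and lay below it in MEP, and 1 MEP library labelled Bcor-/-Dnmt3a-/-, replicate 1, lay above every WT library. Bcor stood at 29.5 to 32.4 FPKM in WT LSK, 22.4 and 23.2 after Bcor deletion and 24.0 and 37.4 in the double knockout. In MEP, Bcor stood at 21.3 to 26.9 in WT, 19.5 and 22.4 after Bcor deletion and 19.6 and 26.7 in the double knockout. The study reports that Bcor mRNA was not detected by reverse transcription PCR in Bcor-/- LSK cells. It also reports loss of Bcor protein in lineage-negative marrow cells and complete Dnmt3a loss in leukemic double knockout mice. The FPKM levels do not show such losses, and Bcor in double knockout LSK replicate 2 lay above every WT library. The reason for this difference was not tested. An FPKM covers the whole gene, and transcripts that lack the deleted exons still count, so these levels alone neither prove nor refute a label. For Dnmt3a, the exons removed are not given in the sources used here, and its exons overlap those of the antisense gene Dnmt3aos, whose reads cannot be told apart unless strand was used.

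**Figure D1:**
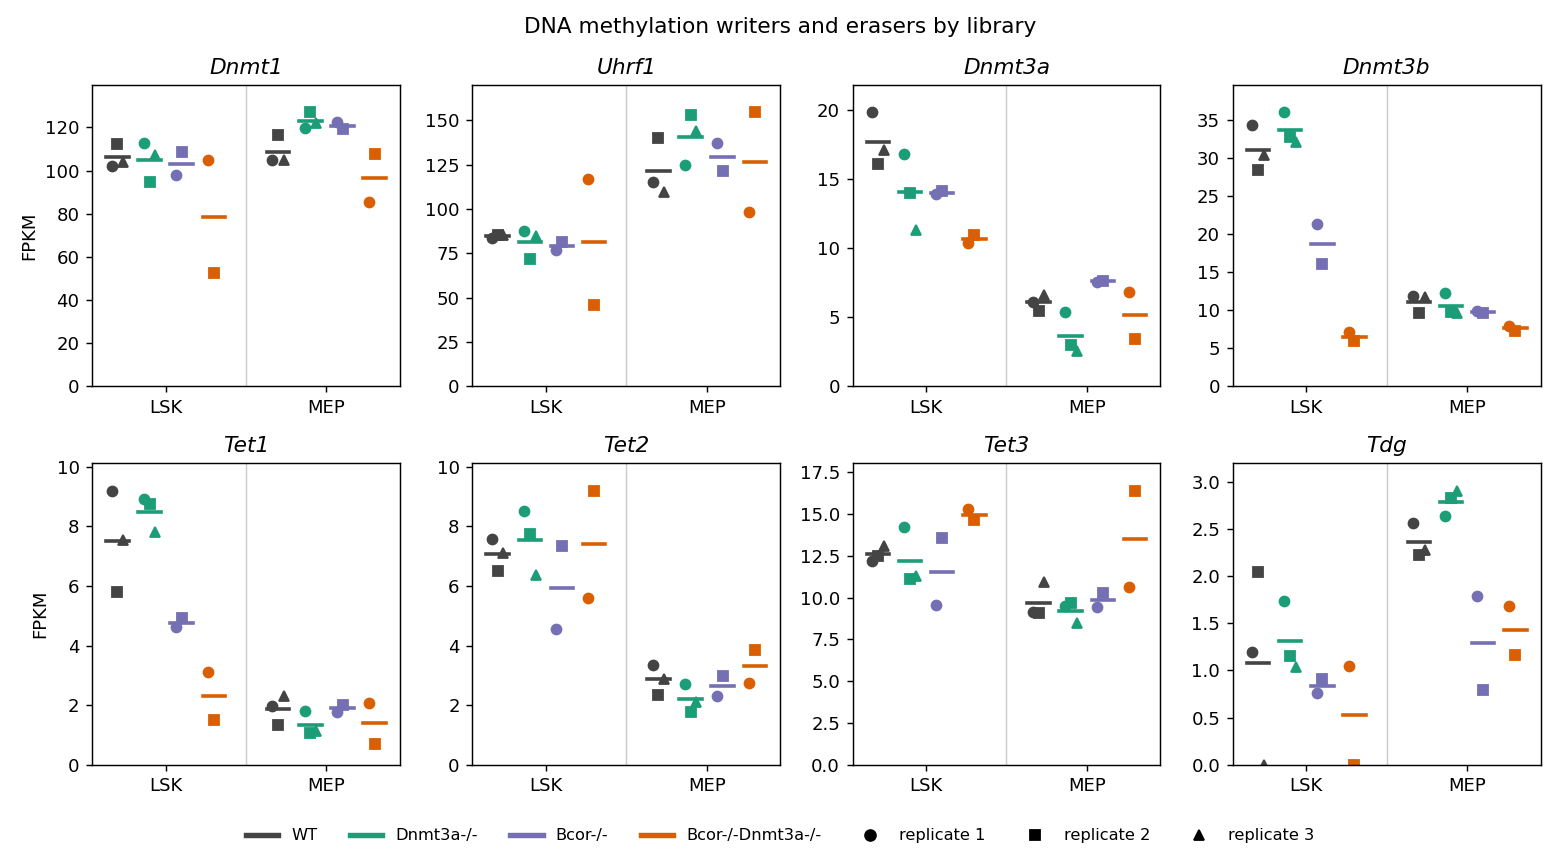
FPKM of the 8 genes (linear axes from 0) in the 10 LSK and 10 MEP libraries; colours give the genotype, point shapes the replicate number and horizontal bars the group mean. In LSK, Dnmt3b and Tet1 are lowest in the 2 Bcor-/-Dnmt3a-/- libraries, while Dnmt1 and Uhrf1 split the 2 double knockout libraries.

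In WT cells the de novo methyltransferases and Tet1 and Tet2 were higher in LSK than in MEP, while the maintenance pair was high in both. Dnmt1 averaged 106 ± 5.33 FPKM (SD, n = 3) in LSK and 109 ± 6.72 in MEP, and Uhrf1 averaged 84.6 ± 1.11 and 121 ± 16.1. FPKM is scaled to transcript length, so levels can be ordered between genes. In LSK the order was Dnmt1, Uhrf1, Dnmt3b, Dnmt3a, Tet3, Tet1, Tet2 and Tdg, with no overlap of the WT libraries between neighbours except between Tet1 and Tet2. Dnmt1 lay above 94.6% of the tested genes by its WT mean in LSK and Tet2 above 29.3%. In MEP the order was Uhrf1, Dnmt1, Dnmt3b, Tet3, Dnmt3a, Tet2, Tdg and Tet1, and the WT libraries of neighbours overlapped for Uhrf1 and Dnmt1, for Dnmt3b and Tet3, for Tet2 and Tdg and for Tdg and Tet1.

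The direct comparison of the cell types was paired by mouse and tested with limma on log2(FPKM + 1). A gene was called where it passed 2 thresholds taken from the study, p under 0.05 before adjustment and more than 1.5-fold, and Benjamini-Hochberg adjusted p over all tested genes are given beside. The LSK and MEP tables may have been scaled separately, which bears on every level set across them. In WT, 5 of the 8 genes were called, against 49.1% of the 11709 tested genes. Tet1 stood at 9.20, 5.79 and 7.54 FPKM in LSK and at 1.98, 1.34 and 2.31 in the MEP of the same mice, without overlap. Its log2 difference was 1.56 (SE 0.14, adjusted p = 3.77e-05 by limma). Dnmt3b was higher in LSK by 1.41 (SE 0.12, adjusted p = 3.44e-05) and Dnmt3a by 1.40 (SE 0.18, adjusted p = 0.000141), so that both de novo enzymes differed by nearly the same factor. Tet2, higher in LSK by 1.07 (SE 0.13, adjusted p = 0.000128), kept its direction but was not called under quantile normalization, with a log2 difference of 0.39. The Tet1 difference was 0.85 under that scaling. Tdg was lower in LSK by 0.83 (SE 0.28, adjusted p = 0.0255), and this rested on WT replicate 3, listed at 0.00013 FPKM in LSK, without which the log2 difference was -0.39 and not called, and under quantile normalization it was -1.47. Dnmt1, at -0.03 (95% interval -0.48 to 0.41), and Uhrf1, at -0.51 (-1.16 to 0.15), were not called, and Tet3 was higher in LSK by 0.35 (SE 0.14, adjusted p = 0.0463) without reaching the fold threshold. Under quantile normalization the Dnmt1 difference changed sign to 0.23, and under median centring Uhrf1 was called at -0.77. The median difference of all genes was 0.16, which these scalings moved to -0.08 and -0.10. Of 18 replication and mitosis genes, 14 were called lower in LSK, 8 under quantile normalization and 17 under median centring.

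After deletion of Dnmt3a, none of the other genes passed the test in either population. These mice show a loss that the study's text calls incomplete, as it describes Mx1-Cre as removing Dnmt3a fully only in the leukemic double knockout mice. In LSK, 0 of the 7 tested genes were called, against 0.443% of the 11952 tested genes, and 0 had an unadjusted p under 0.05 by limma. Tdg, at a mean of 0.988 FPKM, was under the filter of 1 FPKM and was not tested in LSK. Dnmt3b stood at 34.3, 28.4 and 30.3 FPKM in WT and at 36.0, 32.7 and 32.1 in Dnmt3a-/-, and the groups overlapped. Its log2 fold change was 0.12 with a 95% interval of -0.19 to 0.42, which leaves room for changes in either direction smaller than 1.5-fold. Dnmt3a itself was at -0.32 (-0.66 to 0.01, adjusted p = 1 by limma). Tet1 was at 0.18 (-0.31 to 0.66), and Dnmt1, Uhrf1, Tet2 and Tet3 lay between -0.06 and 0.08. The intervals and p-values after Dnmt3a deletion use a spread shared with the double knockout libraries, which were less alike. A gene that did not pass is therefore not shown to be unchanged.

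In MEP the deleted gene was the only 1 of the 8 called, against 0.412% of the 10933 tested genes. Dnmt3a was lower by 0.65 (SE 0.27, called on the unadjusted value with an adjusted p = 1 by limma), with all 3 Dnmt3a-/- libraries below every WT library. The call was lost on the p alone without WT replicate 1, 2 or 3, at -0.65, -0.72 and -0.60, and the fold was also under the threshold without Dnmt3a-/- replicate 2 or 3, at -0.565 and -0.49. Dnmt3b stood at 11.8, 9.62 and 11.8 FPKM in WT and at 12.3, 9.74 and 9.58 in Dnmt3a-/-, a log2 fold change of -0.07 (-0.37 to 0.24). Dnmt1 was higher in all 3 Dnmt3a-/- MEP libraries, at 120 to 127 FPKM, than in WT, at 105 to 117, but the log2 fold change of 0.18 did not pass (exact permutation p = 0.1, the smallest that 3 against 3 allows). Tdg was also above every WT library, at 2.64 to 2.91 against 2.23 to 2.56 FPKM, at a log2 fold change of 0.18 that did not pass (exact permutation p = 0.1). Of all tested genes, 5.12% lay above and 5.27% below every WT library in this comparison. Uhrf1 was at 0.21, Tet1 at -0.31 (-0.93 to 0.32) and Tet2 at -0.28 (-0.73 to 0.18), and none of them passed. Between the cell types the effect of the Dnmt3a deletion differed past both thresholds for 0 of the 8 genes, against 0.931% of all genes; 1, Tet1, had an unadjusted p under 0.05, and it was called at 0.59 without WT replicate 1 and at 0.59 without Dnmt3a-/- replicate 1. The differences in effect were 0.33 (-0.24 to 0.90) for Dnmt3a and 0.18 (-0.19 to 0.56) for Dnmt3b.

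In Bcor-/- LSK, Dnmt3b was lower than in WT. Its FPKM was 21.3 and 16.0 in Bcor-/-, below every WT library, a log2 fold change of -0.71 (SE 0.15, adjusted p = 0.0283 by limma). It was the 1 gene called of 7, a share near the 13.2% of all tested genes, and without Bcor-/- replicate 2 the fold change of -0.51 was under the threshold (adjusted p = 0.297 by limma). Tet1 stood at 4.61 and 4.93 FPKM, again below every WT library, and its log2 fold change of -0.54 (SE 0.24, adjusted p = 0.198 by limma) missed the fold threshold. Without WT replicate 2 it was called at -0.69. Dnmt3a, at -0.31 (-0.68 to 0.06), was also below every WT library without passing the test. Uhrf1, at 77.1 and 81.3 FPKM against 83.4 to 85.4 in WT, was the fourth such gene of 7, at a log2 fold change of -0.10, where 27.0% of all tested genes lay below every WT library. Tet2, Tet3 and Dnmt1 overlapped WT, at -0.24, -0.13 and -0.04. The granulocyte marker sum was higher in these LSK libraries, at 17670 and 25290 FPKM against 3486 to 13310 in WT, and 4 of its 9 genes were called higher. The LSK marker sum was lower, at 853 and 577 FPKM against 1119 to 1308, and 4 of its 9 genes were called lower, while 3 of 7 MEP markers and 4 of 10 markers of maturing erythroid cells were called higher and none of them lower. Bcor-/- replicate 2 had the lower Dnmt3b, the lower LSK sum and the higher granulocyte sum, and the part of these markers in the values of the 8 genes was not tested.

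In Bcor-/- MEP, 0 of the 8 genes passed both thresholds, against 2.76% of all tested genes, and 1, Tdg, had an unadjusted p under 0.05 by limma. Tdg stood at 2.56, 2.23 and 2.28 FPKM in WT and at 1.79 and 0.797 in Bcor-/-, a log2 fold change of -0.58 (SE 0.23, adjusted p = 0.816), just under the fold threshold, and was called at -0.90 without Bcor-/- replicate 1. Tdg has a pseudogene and shares exon bases with Glt8d2 on the other strand, so that its low values are uncertain. Both Bcor-/- libraries lay below every WT library for Tdg, as they did for 16.1% of all tested genes. They lay above every WT library for Dnmt3a, at 7.56 and 7.65 against 5.49 to 6.64 FPKM (exact permutation p = 0.1), and for Dnmt1, at 122 and 119 against 105 to 117 (exact permutation p = 0.2), as they did for 14.7% of all tested genes. The log2 fold changes of 0.29 (-0.40 to 0.97) and 0.15 (-0.11 to 0.41) did not pass, nor did that of Dnmt3b, at -0.16 (-0.50 to 0.18). The effect of the Bcor deletion differed between LSK and MEP past both thresholds for 0 of 8 genes, against 11.8% of all genes. The 2 genes with an unadjusted p under 0.05 were Dnmt3b, at -0.55 (SE 0.19, adjusted p = 0.177), and Tet1, at -0.56 (SE 0.22, adjusted p = 0.233). Both were called without WT replicate 3, at -0.61 and -0.66, and Dnmt3b without Bcor-/- replicate 1, at -0.73.

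In LSK cells with both deletions, Dnmt3b, Tet1 and Dnmt3a were lower and the other 4 tested genes were not called, although Dnmt1 was called lower under quantile normalization, at -0.66, and under median centring, at -0.60. Dnmt3b stood at 7.12 and 5.98 FPKM, a log2 fold change of -2.08 against WT (SE 0.15, 4.24-fold lower, adjusted p = 4.68e-05 by limma). Tet1, at 3.12 and 1.51 FPKM, was lower by 1.38 (SE 0.24, adjusted p = 0.00272), and Dnmt3a by 0.68 (SE 0.16, adjusted p = 0.0141). Each of these pairs lay below every WT library, as 24.1% of all tested genes did, and each call was kept when either double knockout library was left out. With 1 variance per genotype the Dnmt3a call was lost (adjusted p = 0.296 by limma). The 3 called genes of 7 compare with 28.3% of all tested genes, and the median log2 fold change was -0.51 over the 7 and 0.02 over all genes. The summed FPKM of the 2 de novo enzymes was 44.4 to 54.1 in WT, 43.4 to 52.8 with Dnmt3a deleted, 30.1 and 35.3 with Bcor deleted and 16.9 and 17.5 with both deleted.

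The other 2 Tet genes did not follow Tet1. Tet3 stood at 15.3 and 14.6 FPKM against 12.2 to 13.1 in WT, above every WT library, as 25.5% of all tested genes were, at a log2 fold change of 0.23 (-0.14 to 0.60) that did not pass. Tet2 stood at 5.60 and 9.19 FPKM around WT levels of 6.51 to 7.56, at 0.03 (-0.51 to 0.56), with the sign turning under quantile normalization and median centring. The Tet family sum was 24.0 and 25.3 FPKM against 24.8 to 29.0 in WT, and the share of Tet1 in it was 13.0% and 5.97% against 23.4% to 31.8%.

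The maintenance genes Dnmt1 and Uhrf1 divided the 2 double knockout mice. In LSK, Dnmt1 stood at 104.7 FPKM in replicate 1 and 52.6 in replicate 2, and Uhrf1 at 117 and 45.8, with WT at 102.3 to 112.2 and at 83.4 to 85.4. Their log2 fold changes were -0.51 (-1.04 to 0.03) and -0.21 (-0.90 to 0.48). Without replicate 1 both were called lower, Dnmt1 at -0.999 and Uhrf1 at -0.87, and without replicate 2 Dnmt1 was at -0.018 and Uhrf1 turned to 0.46, so that Uhrf1 has no single direction in this genotype and the size of the Dnmt1 difference rests on replicate 2. The summed FPKM of 18 replication and mitosis genes ran the same way, at 2304 in replicate 1 and 1154 in replicate 2 against 1587 to 1800 in WT. In MEP the order of the 2 mice was the opposite. Dnmt1 stood at 85.3 and 107.5 FPKM, Uhrf1 at 98.1 and 154, and the replication sum at 2323 and 4111.

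**Figure D2:**
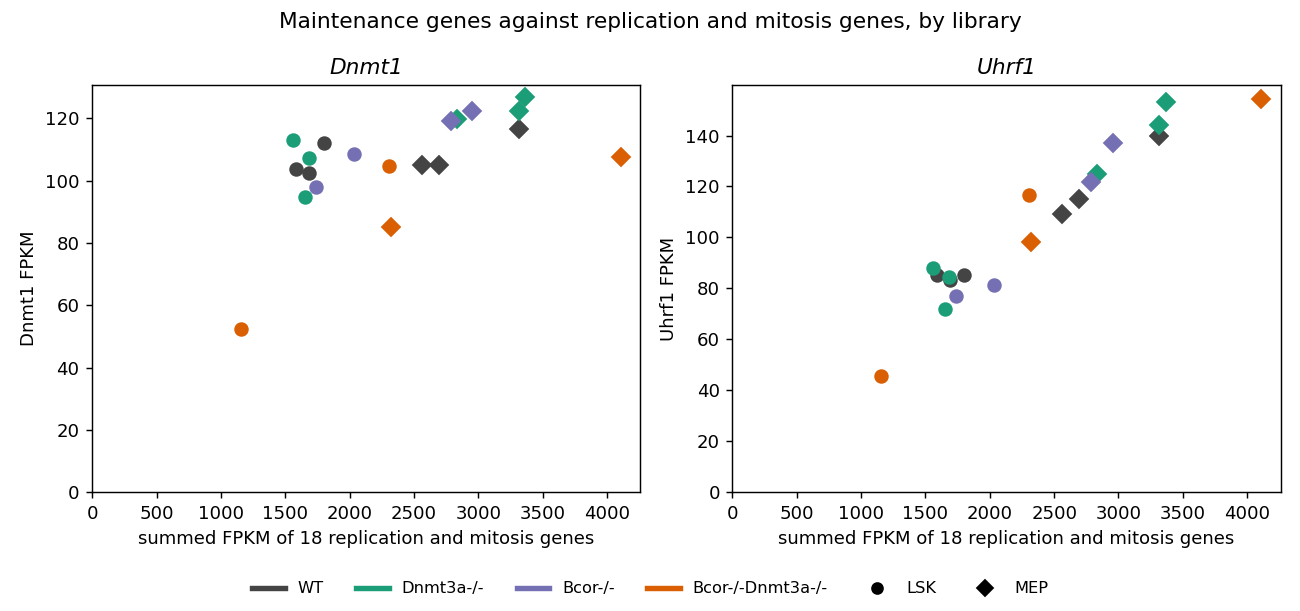
Dnmt1 (left) and Uhrf1 (right) FPKM of each of the 20 libraries against the summed FPKM of 18 replication and mitosis genes, all axes linear from 0; circles are LSK, diamonds MEP, and colours give the genotype. The Bcor-/-Dnmt3a-/- libraries take both the lowest sum, 1154 in LSK, and the highest, 4111 in MEP.

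In MEP with both deletions, 0 of the 8 genes passed both thresholds, against 30.9% of all tested genes, and 2 had an unadjusted p under 0.05 by limma. Dnmt3b stood at 7.93 and 7.29 FPKM, below every WT library as were 25.8% of all tested genes, and its log2 fold change of -0.48 (SE 0.15, adjusted p = 0.0371) was under the fold threshold. Tet3, at 10.6 and 16.4 FPKM, was at 0.42 (SE 0.18, adjusted p = 0.108). Tdg, at 1.69 and 1.17 FPKM also below every WT library, was at -0.48, Tet1 at -0.32, Dnmt3a at -0.26, Dnmt1 at -0.18 and Uhrf1 at 0.03, and none of them passed. These counts depended on scaling and on 1 mouse. The median of all genes was 0.02, and -0.17 under quantile normalization and -0.14 under median centring, which called 4 and 2 of the 8 genes lower. Without replicate 1, 4 genes were called, Dnmt3a at -0.67, Tet1 at -0.75 and Tdg at -0.63 lower and Tet3 at 0.71 higher. Without replicate 2, Dnmt3a turned to 0.15 and Tet1 to 0.11, while Tdg was at -0.32 and Tet3 at 0.12. Dnmt3a and Tet1 thus have no single direction in these MEP libraries. The erythroid marker sum of replicate 2 in MEP was 97210 FPKM, against 4225 in replicate 1 and 806 to 1464 in WT. The granulocyte sum was 6791 and 15270 against 313 to 774. The B cell sum was 2795 in replicate 1 and 122 in replicate 2 against 30.4 to 174, and the macrophage sum 663 and 15.5 against 2.92 to 3.58. The MEP marker sum was 530.2 and 2283 against 910.0 to 1091, with 2 of 7 called lower, and the megakaryocyte sum 17.8 and 70.6 against 86.4 to 335, with 2 of 6 called lower. The part of these markers in the values of the 8 genes was not tested.

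**Figure D3:**
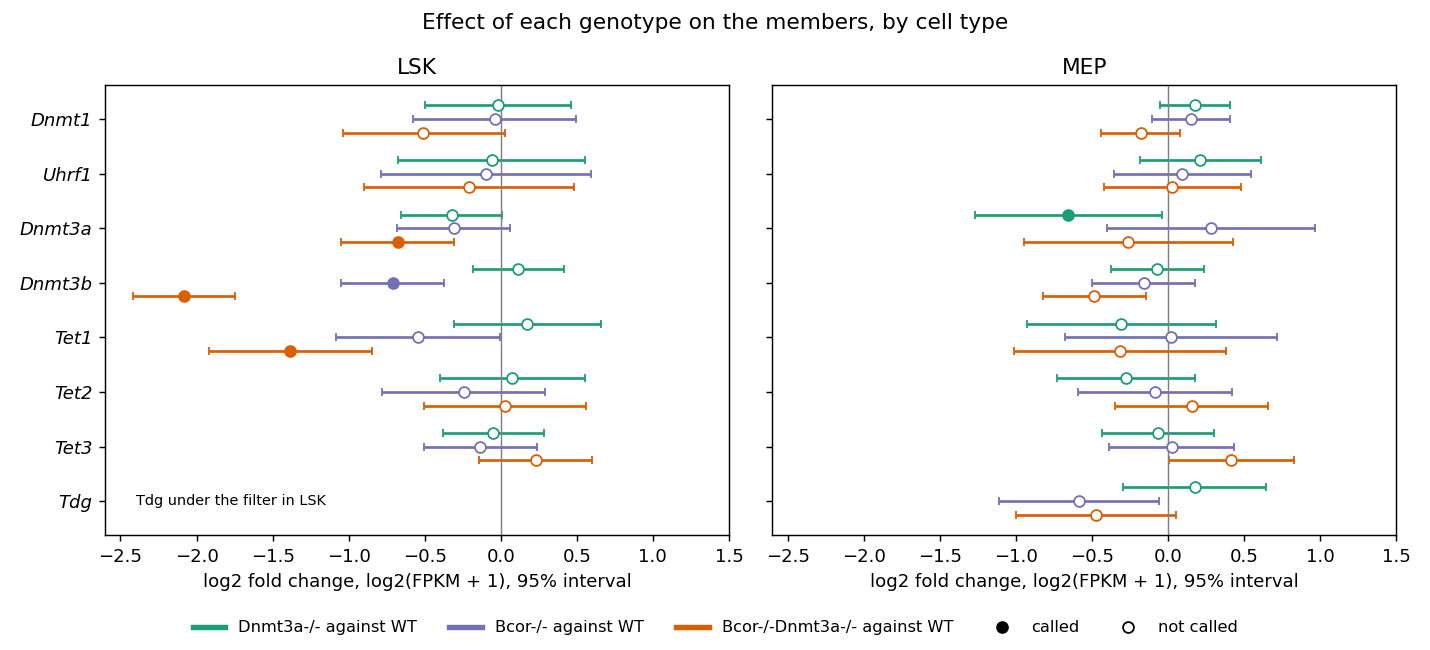
Log2 fold change of each gene against WT on the log2(FPKM + 1) scale, with 95% intervals from limma, in LSK (left) and MEP (right); colours give the genotype and filled points were called. The Dnmt3b value of -2.08 and the Tet1 value of -1.38 in Bcor-/-Dnmt3a-/- LSK stand apart from all other values.

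Adding the Dnmt3a deletion to the Bcor deletion went with a further fall of Dnmt3b and Tet1 in LSK. Against Bcor-/-, Dnmt3b was lower in Bcor-/-Dnmt3a-/- by 1.37 (SE 0.16, adjusted p = 0.000635 by limma) and Tet1 by 0.84 (SE 0.26, adjusted p = 0.0389), while Dnmt3a was at -0.37 (-0.78 to 0.04). These 2 of 7 genes compare with 30.6% of all tested genes. The Tet1 call was lost without double knockout replicate 2, at -0.49, and also with 1 variance per genotype or with only these 2 genotypes fitted (adjusted p = 0.262 and 0.251 by limma). The interaction term, the double knockout effect beyond the sum of both single effects, was -1.49 for Dnmt3b (SE 0.21, adjusted p = 0.00328) and -1.02 for Tet1 (SE 0.34, adjusted p = 0.0749), again 2 of 7 against 25.7% of all genes. Without double knockout replicate 1, Dnmt1 and Uhrf1 were called as well, at -0.96 and -0.78 against Bcor-/- and at -0.94 and -0.72 for the interaction. Without replicate 2 the Uhrf1 interaction was called in the other direction, at 0.61. Without Bcor-/- replicate 2, Tet3 was called higher, at 0.60 against Bcor-/- and at 0.65 for the interaction. In MEP, 0 of 8 genes were called against Bcor-/- and 0 of 8 for the interaction, against 27.9% and 26.8% of all genes, and in each 1 gene, Dnmt1, had an unadjusted p under 0.05 by limma. Dnmt1 was at -0.33 (SE 0.12) and -0.51 (SE 0.16), Dnmt3b at -0.32 and -0.26, and Dnmt3a at -0.54 against Bcor-/-. These counts of 0 depended on scaling. Under quantile normalization, Dnmt3a at -0.92, Dnmt3b at -0.63 and Tet1 at -0.70 were called lower against Bcor-/-. For the interaction, Dnmt3b was called at -0.60 under that scaling and Dnmt1 at -0.66 under median centring. Without double knockout replicate 1, 3 genes were called against Bcor-/-, Dnmt3a at -0.96, Tet1 at -0.765 and Tet3 at 0.68, and Tet3 was called for the interaction at 0.75. Without replicate 2 the interaction was called for Dnmt1, at -0.67, and Uhrf1, at -0.61.

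The effect of the double deletion differed between the cell types for the same pair of genes. The LSK effect minus the MEP effect, paired by mouse, was -1.60 for Dnmt3b (SE 0.19, adjusted p = 0.00381 by limma) and -1.07 for Tet1 (SE 0.22, adjusted p = 0.014). They were the 2 of 8 called, against 29.4% of all tested genes, and both differences kept their direction without either double knockout mouse. Dnmt1, at -0.98, and Uhrf1, at -1.22, were also called without replicate 1, and Dnmt3a, at -0.87, and Uhrf1, at 0.76, without replicate 2. WT MEP held less of both Dnmt3b and Tet1 to begin with. The Dnmt3b level of the double knockout LSK, 5.98 to 7.12 FPKM, lay under that of WT MEP, 9.62 to 11.8. The Tet1 level of the double knockout LSK, 3.12 and 1.51 FPKM, did not lie under that of WT MEP, 1.34 to 2.31. These levels are set across tables that may have been scaled separately.

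The RNA balance of the 2 de novo enzymes was read as the ratio of Dnmt3b to Dnmt3a within each library, which needs no scaling between libraries. The WT ratios were 1.73, 1.76 and 1.77 in LSK and 1.94, 1.75 and 1.78 in MEP, so that the balance was nearly the same in the 2 cell types although both genes differed in level. In Dnmt3a-/- the ratio was higher in every library than in WT, at 2.13, 2.33 and 2.84 in LSK and 2.28, 3.28 and 3.74 in MEP. The denominator is the deleted gene in these mice, so this is no result apart from the lower Dnmt3a, at -0.32 in LSK and -0.65 in MEP beside Dnmt3b at 0.12 and -0.07. In Bcor-/- it was lower in every library, at 1.53 and 1.13 in LSK and 1.31 and 1.26 in MEP. Each of these log2 differences, 0.46 and 0.74 in Dnmt3a-/- and -0.41 and -0.50 in Bcor-/-, had an exact two-sided permutation p of 0.1, the smallest the group sizes allow. In LSK with both deletions the ratio was 0.688 and 0.546, a log2 difference of -1.51 (exact permutation p = 0.1), and Dnmt3a had the higher FPKM of the 2 genes. Dnmt3a is deleted in these mice too, and its FPKM can include transcripts that lack the removed exons. The ratio thus does not give the balance of working enzymes in the double knockout. In MEP with both deletions the libraries disagreed, at 1.16 and 2.12 (exact permutation p = 0.7).

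**Figure D4:**
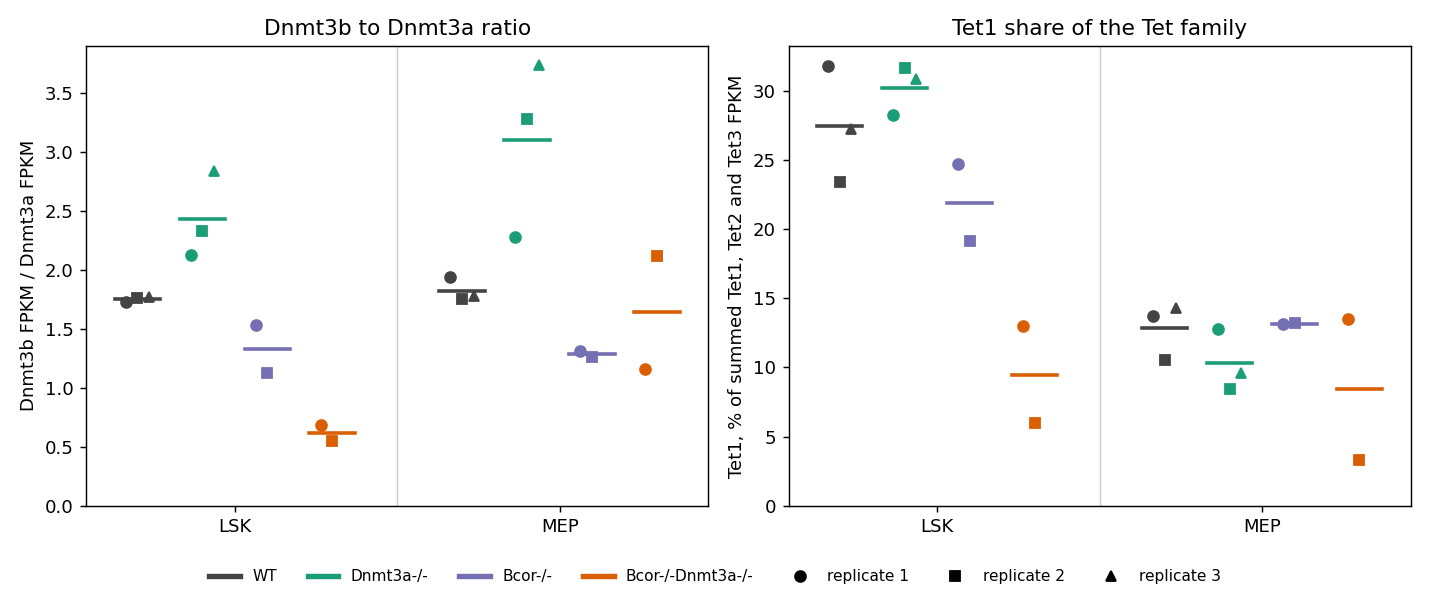
Left, ratio of Dnmt3b to Dnmt3a FPKM in each library; right, Tet1 as a percentage of the summed FPKM of Tet1, Tet2 and Tet3; linear axes from 0, colours give the genotype, shapes the replicate and bars the group mean. The ratio lies above WT in all Dnmt3a-/- libraries and under 1 in both Bcor-/-Dnmt3a-/- LSK libraries, where Tet1 makes up 13.0% and 5.97% of the Tet sum.

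Across the 20 libraries, after centring each cell type on its mean, Dnmt3b and Tet1 followed each other most closely of the 28 pairs among the 8 genes, with r = 0.894, and 0.806 over the 16 libraries without the double knockout. Dnmt1 and Uhrf1 came next over the 20 libraries, at 0.833, and were the closest pair over the 16, at 0.840. The libraries of 1 mouse and of 1 genotype are not independent, and these values are descriptions. Of 11709 genes, those most like Dnmt3b were Cacnb2 (r = 0.976), Gprasp2 and Osbpl1a (both 0.971), and those most like Tet1 were Casd1 (0.966), Rai14 (0.955) and Anxa4 (0.950). For Uhrf1 they were the DNA ligase gene Lig1 (0.970), the replicative helicase gene Mcm3 (0.912) and the ribonucleotide reductase gene Rrm1 (0.898, and 0.571 without the double knockout). For Dnmt1 the first was the tubulin gene Tubb5 (0.953), which dropped to 0.665 without the double knockout. Dnmt3a was most like Prpsap2 (0.872), Tet2 most like the ubiquitin ligase gene Cbl (0.884), Tet3 most like Herc2 (0.933) and Tdg most like Mettl14 (0.781).

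The genes around the 8 in the pathway were read from 4 lists of partners, readers, repair enzymes and cofactor enzymes. In Dnmt3a-/-, 0 genes of these lists were called in either cell type, where 0.443% of all tested genes were called in LSK and 0.412% in MEP, so that the 0 says nothing particular to them. At an unadjusted p under 0.05 by limma, the count was 1 of 15 repair genes in LSK and 1 of 14 cofactor genes in MEP. In Bcor-/- LSK, Zfp57, which guards imprinted methylation, was lower by 0.86 (SE 0.34, adjusted p = 0.158), the uracil glycosylase gene Ung was lower by 0.72 (SE 0.16, adjusted p = 0.0362) and Idh1, which makes the 2-oxoglutarate that TET enzymes need, was higher by 1.41 (SE 0.25, adjusted p = 0.0207), where 13.2% of all genes were called. Without Bcor-/- replicate 2 the calls of Zfp57, at -0.57, and Ung, at -0.50, were lost, and that of Zfp57 also without WT replicate 1 or 3, at -0.76 and -0.78. In Bcor-/- MEP, Gadd45g and Idh1 were called higher, at 0.88 and 0.72 (adjusted p = 0.797 and 0.407 by limma), where 2.76% of all genes were called. The Idh1 call was lost without WT replicate 2 or Bcor-/- replicate 1, at 0.58 and 0.54, and that of Gadd45g without WT replicate 2 or 3 or either Bcor-/- library, at 0.75 to 1.02.

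In LSK with both deletions, 2 of 8 partners of the writers were called lower and none higher, Zfp57 at -1.74 (SE 0.34, adjusted p = 0.00541 by limma) and its corepressor Trim28 at -0.72 (SE 0.13, adjusted p = 0.00304). Of 9 readers of methylated DNA, Mbd2 and Zbtb4 were called higher, at 1.12 and 1.04 (adjusted p = 0.000244 and 0.037), and none lower. Of 15 repair genes, 5 were called higher and 1 lower, and 3 of the 6 passed the fold threshold with an adjusted p under 0.05. The oxidized-base glycosylase gene Neil1 was higher by 1.71 (SE 0.26, adjusted p = 0.00141) and Gadd45g by 1.55 (SE 0.16, adjusted p = 0.00022). Gadd45b and Gadd45a were called at 1.37 and 1.14 (adjusted p = 0.0808 and 0.0667 by limma), and this rested on replicate 2, with 86.8 and 63.8 FPKM against 17.9 and 18.5 in replicate 1. Of 14 TET partners and cofactor genes, 4 were called lower and none higher, among them Idh2 (-1.11, adjusted p = 0.000288), the S-adenosylhomocysteine hydrolase gene Ahcy (-0.82, adjusted p = 0.00546) and Shmt1 (-0.88, adjusted p = 0.054). Without replicate 2 the calls of Gadd45b (0.26), Gadd45a (0.28), Shmt1 (-0.24), Trim28 (-0.545) and Zbtb4 (0.55) were lost, and that of Gadd45b also without WT replicate 2 or 3 and that of Gadd45a without WT replicate 3, on the p alone. With 28.3% of all tested genes called in this comparison, these shares are read as descriptions, and 6 of the cofactor genes were lower under quantile normalization and 6 under median centring.

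In MEP with both deletions, the same lists gave 1 higher and 1 lower of 7 partners, 2 higher of 9 readers, 5 higher and 3 lower of 15 repair genes and 4 of each of 14 cofactor genes, where 30.9% of all genes were called. These counts moved with scaling. The partners gave 1 higher and 2 lower under quantile normalization and 0 and 2 under median centring, the readers 1 and 1 under both, the repair genes 4 and 2 and then 4 and 4, and the cofactor genes 2 and 4 and then 4 and 4. Trim28 was lower by 0.82 (SE 0.10, adjusted p = 0.00107 by limma) and the reader Zbtb4 was higher by 1.42 (SE 0.21, adjusted p = 0.00214). Gadd45b was higher by 1.80 (SE 0.29, adjusted p = 0.00276) and the thymine glycol glycosylase gene Nthl1 was lower by 1.33 (SE 0.14, adjusted p = 0.000608). Among the cofactor genes Ogt, whose product binds TET proteins, was higher by 1.33 (SE 0.17, adjusted p = 0.00122). The calls of these 5 genes were kept without either double knockout mouse. Cxxc5 was called at 1.31 (adjusted p = 0.0716), which rested on replicate 1, at 39.1 FPKM, since replicate 2, at 10.4, lay within the WT range of 5.86 to 10.8. Without replicate 1 it was at 0.41 and not called, and the call was also lost without WT replicate 1 or 2, at 1.25 and 1.15.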

How the data were processed

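Gene expression was measured by polyA RNA-seq of sorted LSK and MEP cells, and the authors deposited 1 table of FPKM values per cell type. Per the labels' processing notes, STAR 2.5.1b, SAMtools 1.9 and Cufflinks 2.2.1 were used with mm9; whether counting used strand is not given in the sources used here. The deposited FPKM values carry no counts, so limma 3.58.1 in R 4.3.3 was fitted to log2(FPKM + 1), with a mean-variance trend and all 4 genotypes in 1 model per cell type. Fold changes are on that scale, which understates changes of low genes. The filter kept genes whose mean over the 10 libraries reached 1 FPKM. Calls needed p under 0.05 before adjustment and more than 1.5-fold, as in the study, whose test is not named. LSK and MEP of 1 mouse or pool were paired by the animal named in the labels. P-values measure the spread between mice of 1 genotype, and with 2 libraries in 2 of the genotypes that spread was shared over all 4. The Bcor-/-Dnmt3a-/- pairs were the least alike, at r of 0.849 in LSK and 0.815 in MEP. Where these pairs differ in a gene, the shared spread widens the intervals of the other genotypes and narrows those of the double knockout. The script was tested on simulated data whose spread was taken from the libraries other than the double knockout. That test thus does not cover the wider spread of the double knockout pairs. Promoter letters were counted in RefSeq tables with Python 3.11.15. The 8 genes are reported in full; of the lists, called genes are named up to the 4 largest changes per comparison, and some of these are not reported here. The genes and lists were chosen with earlier results of these data known. Alternatives were another pseudocount, other filters, scalings, variance models and thresholds, a replicate block, and each library left out. In comparisons across the cell types, both libraries of a mouse or pool were left out. Where that leaves 1 library in a genotype, it is assumed to vary like the other genotypes. The precision is that of 2 or 3 libraries per group, since read depth is known only relative to 1 library.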

Additional observations from a re-analysis of the deposited data

Results flagged for a closer look

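The effect of the double deletion on Dnmt3b and Tet1 differed between the 2 cell types by a test of the difference itself, as it did for 29.4% of all 11709 tested genes, with 2 of the 8 genes called. The LSK effect minus the MEP effect was -1.60 for Dnmt3b (SE 0.19, adjusted p = 0.00381 by limma) and -1.07 for Tet1 (SE 0.22, adjusted p = 0.014), each with both double knockout mice in the same direction. Leaving out each WT or double knockout mouse in turn, with both of its libraries, gave differences of -1.66 to -1.54 for Dnmt3b and of -1.17 to -0.96 for Tet1. Where this left 1 double knockout mouse, the spread of that genotype could not be estimated. In the same LSK libraries the 9 LSK markers summed to 182 and 374 FPKM against 1119 to 1308 in WT, and the part of this in the difference was not tested.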

How the results depend on the processing

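The counts of the 8 genes called were small, so single genes moved them. Under quantile normalization the count was 0 in MEP for Dnmt3a-/-, 4 for Bcor-/-Dnmt3a-/- against WT, 3 for Bcor-/-Dnmt3a-/- against Bcor-/-, 1 for the MEP interaction and 1 for the Bcor-/- effect difference. Median centring gave 1 in MEP for Bcor-/-, 2 for Bcor-/-Dnmt3a-/- and 1 for the interaction. A pseudocount of 0.1 gave 1 in MEP for Bcor-/- and 1 for the Dnmt3a-/- effect difference. Testing all genes above 0 gave 0 in MEP for Dnmt3a-/-, and a minimum of 5 FPKM, which tests fewer genes, gave 2 for LSK against MEP and 1 for the double knockout effect difference. Adjusted p gave 1 for the LSK interaction and 0 in MEP for Dnmt3a-/-. A fold change above 2 gave 0 in LSK for Bcor-/-, 1 in LSK for Bcor-/-Dnmt3a-/- against Bcor-/- and 0 in MEP for Dnmt3a-/-. A variance per genotype gave 1 in LSK for Bcor-/-Dnmt3a-/- against Bcor-/- and 1 for the Bcor-/- effect difference, and fitting only the compared genotypes gave 1 in that LSK comparison. The causes were not tested where the construction does not give them.

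Genes near 0 turned sign. Tet2 in LSK with both deletions went to -0.060 under quantile normalization, -0.064 under median centring and -0.021 with the replicate block, Uhrf1 in MEP with both deletions to -0.0092 and -0.13 under the 2 scalings, and Dnmt1 between LSK and MEP to 0.23 under quantile normalization.

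With each library left out in turn, the count ran in LSK from 0 to 2 for Bcor-/-, 3 to 5 for Bcor-/-Dnmt3a-/-, 1 to 4 against Bcor-/- and 2 to 4 for the interaction. In MEP it ran from 0 to 1 for Dnmt3a-/-, 0 to 1 for Bcor-/-, 0 to 4 for Bcor-/-Dnmt3a-/-, 0 to 3 against Bcor-/- and 0 to 2 for the interaction. Effect differences ran from 0 to 1 for Dnmt3a-/-, 0 to 2 for Bcor-/- and 2 to 4 for Bcor-/-Dnmt3a-/-, and LSK against MEP from 4 to 5. Of the log2 values printed for the 8 genes, those that turned in LSK were Dnmt1 (-0.071 to 0.054), Tet2 (-0.0051 to 0.18), Tet3 (-0.16 to 0.0081) and Uhrf1 (-0.12 to 0.026) in Dnmt3a-/-, Dnmt1 (-0.11 to 0.031), Tet2 (-0.54 to 0.051) and Tet3 (-0.37 to 0.098) in Bcor-/-, and Tet2 (-0.29 to 0.34) and Uhrf1 (-0.87 to 0.46) in Bcor-/-Dnmt3a-/-. Also in LSK, Dnmt1 and Uhrf1 turned against Bcor-/- (-0.96 to 0.023 and -0.78 to 0.55) and for the interaction (-0.94 to 0.039 and -0.72 to 0.61). In MEP with both deletions Dnmt3a (-0.67 to 0.15), Tet1 (-0.75 to 0.11) and Uhrf1 (-0.30 to 0.35) turned, as did Tet1 against Bcor-/- (-0.77 to 0.094) and the Uhrf1 interaction (-0.61 to 0.043). The double knockout effect difference turned for Dnmt1 (-0.98 to 0.33), Dnmt3a (-0.87 to 0.029) and Uhrf1 (-1.22 to 0.76). The log2 ratio of Dnmt3b to Dnmt3a ran in LSK from 0.35 to 0.55 for Dnmt3a-/-, -0.63 to -0.20 for Bcor-/- and -1.68 to -1.35 for both, and in MEP from 0.59 to 0.94, -0.53 to -0.46 and -0.65 to 0.22.

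Replicate numbers in the labels do not mark shared animals across genotypes, and same-numbered libraries deviated together by r of -0.06 to 0.09 in LSK and -0.19 to 0.34 in MEP. With the replicate block the counts were 3 in LSK for Bcor-/-Dnmt3a-/- and 0 in MEP, and no count moved. Without pairing LSK and MEP by mouse (no replicate block) the double knockout effect difference again called 2 genes. With 2 double knockout mice that differ from each other, values of single genes there are limited by those mice, and Tdg in LSK and Tet1 in MEP sit near the low end of what the libraries measure.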
